A study of Mus musculus with 2 samples.

Results

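The cells described here are 183 neurons of the mouse arcuate nucleus and median eminence that carried Slc17a6, the vesicular transporter that loads glutamate into synaptic vesicles, and no transcript of the GABA genes Slc32a1, Gad1 and Gad2. They were 100 of 2800 cell barcodes in the wild type library and 83 of 1800 in the Irx3/5 double heterozygote library, out of 4600 barcodes in all. The choice used measured values. A cell needed at least 300 genes, at most 20% mitochondrial counts and at least 2 of 7 general neuron genes (Snap25, Syt1, Stmn2, Stmn3, Elavl4, Tubb3 and Snhg11). It also needed at least 1 count of Slc17a6, none of Foxb1, Kiss1 or Trh, and under 2 counts of Pomc and of Tac2. The cells are called Slc17a6 neurons below.

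The study profiled dissected tissue of CD-1 mice aged 7 to 8 weeks by Drop-seq, which reads the 3' ends of transcripts from single cells caught in droplets with barcoded beads. Tissue of 7 wild type mice was pooled for 1 library, and tissue of 5 mice with the genotype Irx3/5+/- for the other, called the double heterozygote library. The labels state no sex. Live cells were sorted before capture. Irx3 and Irx5 are Iroquois transcription factors, and the title of the series names postnatal neurogenesis and leptin sensitivity. Each genotype is 1 pool, so no difference between genotypes was tested, and every interval given covers counting error only, at the 95% level. Levels are counts of unique molecular identifiers (UMIs, one per captured transcript) summed over cells and given as CPM, the count per 1000000 UMIs of those cells. In every pair of values wild type comes first.

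Glutamate is the main fast excitatory transmitter of the hypothalamus, and Slc17a6 is its usual vesicular transporter there. Many hypothalamic glutamate neurons also release a neuropeptide, a short protein cut from a precursor and stored in dense-core vesicles. Vasopressin and oxytocin come from large neurosecretory cells, whose axons pass through the median eminence, while Pomc, Tac2, Kiss1 and Trh mark peptide neurons that were left out here. Glutamate neurons of the neighbouring ventromedial and premammillary nuclei lie close to the arcuate nucleus and can be caught by its dissection.

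The libraries gave Slc17a6 neurons in similar proportion among neurons. The tables held 4426817 and 2974060 UMIs with a median of 1059 and 936.5 per barcode, and the limits on genes and mitochondrial counts kept 2405 and 1484 cells. Of these, 911 (37.9%) and 720 (48.5%) met the neuron limit. Slc17a6 neurons were 11.0% (9.02 to 13.2) of wild type neurons and 11.5% (9.29 to 14.1) of double heterozygote neurons. Of all kept cells they were 4.16% (3.40 to 5.03) and 5.59% (4.48 to 6.89), beside the higher share of neurons in the second library. Neurons with Slc17a6 and no GABA gene were 149 (16.4%) and 111 (15.4%) before the limits on Foxb1, Kiss1, Trh, Pomc and Tac2, which removed 49 and 28. Neurons with a GABA gene and no Slc17a6 were 380 (41.7%) and 357 (49.6%), neurons with both were 33 and 30, and neurons with neither were 349 (38.3%) and 222 (30.8%). The last class was shallow, with a median of 1166 and 1055.5 UMIs per cell, and may hold glutamate neurons in which Slc17a6 was not caught.

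**Figure D1:**
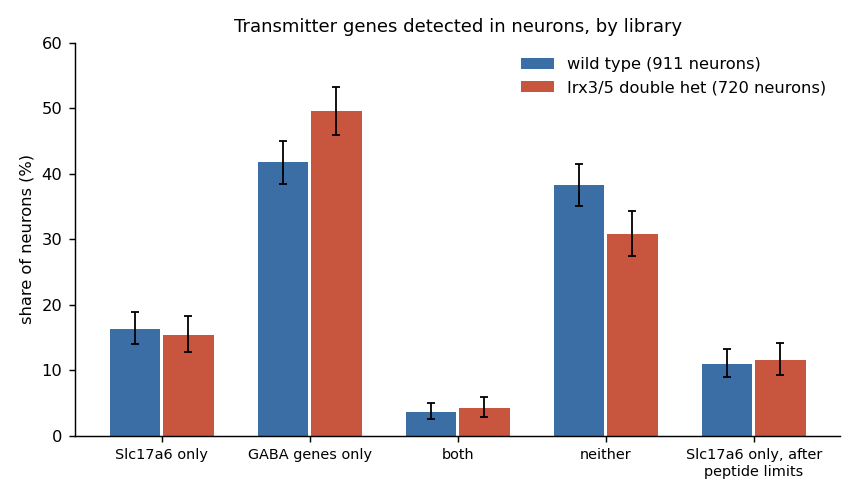
Share of neurons (%) by the transmitter genes found, for 911 wild type and 720 double heterozygote neurons; bars are shares and lines are exact Clopper-Pearson intervals (counting error only). The bars for Slc17a6 alone lie close together in the 2 libraries, while GABA genes alone are at 41.7% and 49.6%.

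Membership rested on few counts of Slc17a6. Its gene lies on the plus strand of chromosome 7 from 51622006 to 51671119 (GRCm38). The Slc17a6 neurons held 200 and 158 UMIs of it, 839 and 870 CPM. A single UMI was the only one in 56 wild type cells (56.0%) and 40 double heterozygote cells (48.2%), and the highest counts were 9 and 8. Cells with 1 UMI were the shallower ones, with a median of 1180.5 and 1205 UMIs, against 2179 and 1882 for those with 2 or more. Just outside the limits, 18 and 16 neurons had Slc17a6 with exactly 1 UMI of a GABA gene. Pomc was at 1 UMI in 6 and 4 cells inside the limit, and at 2 UMIs in 2 and 0 cells outside it. No Slc17a6 neuron had a Tac2 UMI. No oligodendrocyte-marker cell carried Slc17a6, 0 of 249 and 0 of 120, which allows a share of up to 1.20% and 2.50% by a limit of 3 counts. These cells are used throughout as a measure of free RNA and have a median of 1281 and 1112.5 UMIs. They were chosen to have under 2 of the 7 general neuron genes. Their shares may therefore understate the free RNA of neuron genes.

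The Slc17a6 neurons were moderately deep. They held 238367 and 181670 UMIs in all. Wild type cells ranged from 343 to 10336 UMIs with a median of 1680.5, and double heterozygote cells from 352 to 9249 with a median of 1628. The median number of genes was 1170.5 and 1099. Of 7 general neuron genes outside the rule, 3 were above and 1 below the GABA neurons defined below in both libraries. Of all genes with at least 10 UMIs in the Slc17a6 neurons, 36.3% were above and 22.4% below in both. The list medians over GABA neurons were 0.18 and 0.29 on the log2 scale. Rbfox3, the NeuN antigen, stood at 0.89 and 1.03. Gap43, a growth cone protein, was at 1636 and 1899 CPM against 1596 and 1956, and Uchl1, a neuronal ubiquitin hydrolase, was at 1183 and 1310 CPM against 1288 and 1345. No cell barcode was shared between the libraries among them, and 3 were shared among all barcodes. No Slc17a6 neuron was called a doublet, but the caller marked only 17 of 3889 kept cells (0.437%) at an expected rate of 5%, so it did not work here and doublets may remain.

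Marker lists of other cell types summed to 16.5 to 764 CPM, and their part in the results was not tested. The 10 oligodendrocyte markers summed to 520 and 396 CPM, with Mog at 1 and 1 UMI and Mobp at 3 and 2, and 6 and 4 cells held at least 3 of these markers. The 8 astrocyte markers summed to 231 and 198 CPM with Aqp4 at 0 in both. The 10 tanycyte markers summed to 83.9 and 33.0 CPM with Rax and Dio2 at 0 in both. The 8 microglia markers summed to 16.8 and 16.5 CPM with C1qa and Cx3cr1 at 0 in both. The 7 oligodendrocyte precursor markers summed to 214 and 127 CPM. A single wild type cell held 28 of their 51 UMIs, and all 9 of Gpr17 lay in 1 cell. The 6 pars tuberalis markers summed to 764 and 754 CPM, against 627 and 487 in GABA neurons. No other of these lists was above GABA neurons in both libraries. Cck gave 89 and 52 of their 182 and 137 UMIs, and Tshb was at 3 and 0 UMIs. The endothelial, mural, fibroblast and ependymal lists summed to 16.5 to 147 CPM. Mitochondrial counts had a median of 2.08% and 1.54% of a cell's UMIs.

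The label of these cells as glutamatergic neurons without main peptides held only in part. Slc17a7, the cortical vesicular glutamate transporter, was at 0 UMIs in both libraries, and Slc17a8, a further transporter of the family, was at 4 and 2. Of 37 neuropeptide and secreted-factor genes examined, 19 had at least 10 UMIs in the Slc17a6 neurons. Avp, the vasopressin gene, had rank 3 among all genes by UMIs in the wild type cells and rank 1 in the double heterozygote cells. Over 12 peptides, 54 wild type cells (54.0%) and 43 double heterozygote cells (51.8%) had no peptide with at least 2 UMIs. Those cells were shallow, with a median of 1039.5 and 1089 UMIs against 3003 and 2594.5 in the rest, so an undetected peptide is not an absent one.

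Vasopressin and oxytocin counts of the Slc17a6 neurons came almost wholly from 7 cells. Avp (minus strand of chromosome 2, 130580620 to 130582554) and Oxt (plus strand, 130576173 to 130577054) are neighbouring paralogs that encode vasopressin and oxytocin, and the labels do not say how reads matching both were assigned. Avp had 1635 and 2438 UMIs and Oxt 315 and 1191. In wild type, 4 cells with at least 10 UMIs of either gene held 99.1% of Avp and 99.7% of Oxt. In the double heterozygote, 3 such cells held 99.4% and 98.5%.

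Cell by cell, 2 kinds of cell appeared. The 3 wild type cells led by Avp held 611, 509 and 500 Avp UMIs and 43, 42 and 43 Oxt UMIs. The wild type cell led by Oxt held 186 Oxt UMIs and 1 of Avp. The double heterozygote cells held 1892, 433 and 98 Avp UMIs with 137, 20 and 1016 Oxt UMIs, so the last was led by Oxt.

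Galanin, a peptide made by many hypothalamic neurons, was found in all 7 of these cells. Gal had 6, 2, 3 and 1 UMIs in the 4 wild type cells and 24, 4 and 5 in the 3 double heterozygote cells. All Slc17a6 neurons together had 16 and 40 Gal UMIs. The cell with 98 Avp and 1016 Oxt UMIs also held 7 UMIs of Cck and 2 of Sim1, a transcription factor of the paraventricular nucleus. Each of the 7 cells had 1 to 3 UMIs of Slc17a6.

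In the Slc17a6 neurons outside these 7 cells both genes were low, with at most 2 UMIs of Avp and at most 3 of Oxt. Cells with at least 10 UMIs of either gene were 4% and 3.61% of Slc17a6 neurons. Such cells were 9.62% and 4.03% of GABA neurons, where the highest Avp counts were 206 and 116 UMIs. A UMI of Avp was found in 16.0% and 19.3% of the Slc17a6 neurons, against 9.24% and 15.0% of oligodendrocyte-marker cells and 29.5% and 39.3% of GABA neurons. For Oxt the shares were 5.00% and 20.5%, against 4.02% and 11.7% of oligodendrocyte-marker cells and 14.4% and 20.8% of GABA neurons. The ratio of the libraries for both genes therefore followed a few cells. The log2 ratio of double heterozygote to wild type was 0.97 for Avp over all Slc17a6 neurons and -0.46 without the top cell of each library. For Oxt it was 2.31, and 0.87 without the top cells.

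**Figure D2:**
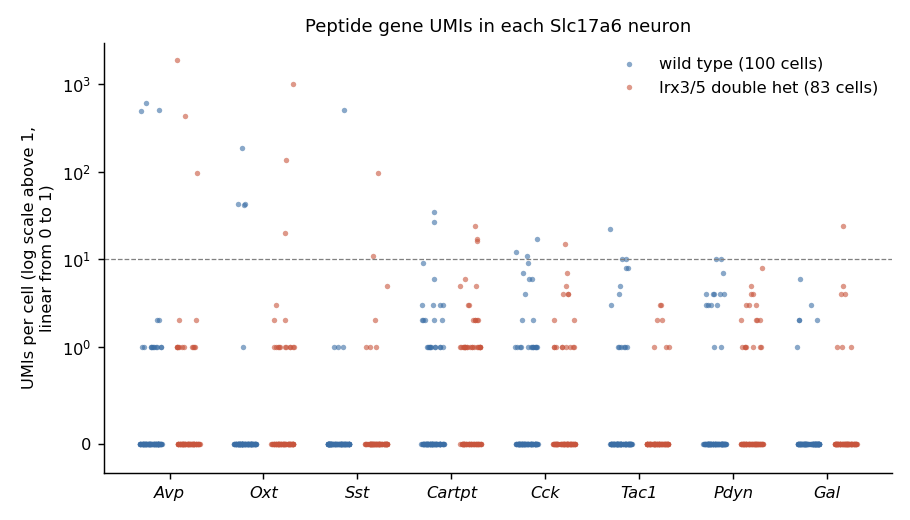
UMIs of 8 peptide genes in each Slc17a6 neuron (1 point per cell, 100 wild type and 83 double heterozygote cells; log scale above 1, linear from 0 to 1, dashed line at 10 UMIs). For Avp, Oxt and Sst a few cells stand far above the rest, up to 1892, 1016 and 509 UMIs, whereas Pdyn and Cck spread over more cells at up to 10 and 17 UMIs.

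Somatostatin followed the same pattern. Sst, an inhibitory peptide gene, had 512 UMIs in wild type, of which 509 lay in 1 cell, and 117 in the double heterozygote, of which 96 lay in 1 cell. The wild type Sst cell also held 35 of the 110 UMIs of Cartpt. Cartpt, which encodes the CART peptide, had 110 UMIs in 24 wild type cells and 110 in 34 double heterozygote cells. The highest wild type cells held 35, 27 and 9 of them, and the highest double heterozygote cells 24, 17 and 16, so its counts too lay largely in a few cells. Thinned to 1000 UMIs per cell, which left 71 and 55 of the Slc17a6 neurons, Cartpt was found in 18.3% and 21.8% of them. It was found in 5.16% of 155 and 4% of 75 thinned oligodendrocyte-marker cells, and in 12.7% and 28.8% of thinned GABA neurons. Several other hypothalamic peptides had few counts: Npy had 1 and 7 UMIs, Agrp 0 and 3, Vip 1 and 1, Pmch 1 and 1, and Hcrt, Crh and Gnrh1 none.

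Prodynorphin was found in a minority of the cells in both libraries. Pdyn (minus strand of chromosome 2, 129686565 to 129699844) encodes the precursor of dynorphin opioid peptides. It had 61 UMIs in 14 wild type cells and 45 UMIs in 18 double heterozygote cells, with at most 10 and 8 in a cell. Thinned to 1000 UMIs, 16.9% and 16.4% of the Slc17a6 neurons had a Pdyn UMI, against 0% and 1.23% of thinned GABA neurons and 0.645% and 0% of thinned oligodendrocyte-marker cells. The libraries were alike in Pdyn, at 256 and 248 CPM with a log2 ratio of -0.04 (-0.64 to 0.53).

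Wild type cells with Pdyn held many of the counts of some other genes. In wild type, 12 Slc17a6 neurons had at least 2 UMIs of Pdyn and were deeper than the rest, with a median of 3497 against 1597.5 UMIs. Of these 12, 10 also carried Ppp1r17, an inhibitor subunit of protein phosphatases, and they held 81.5% of its 119 UMIs. They held 66.3% of the 89 UMIs of Cck, the cholecystokinin gene, and 11 of the 25 UMIs of Nkx2-1, a homeodomain factor of the ventral hypothalamus. In the double heterozygote, 7 of 11 such cells carried Ppp1r17, with 42.6% of its 54 UMIs, 15.4% of the 52 UMIs of Cck and 4 of the 16 UMIs of Nkx2-1. These 11 cells were also deeper, with a median of 2982 UMIs against 1536 in the other 72. Deeper cells hold more counts of most genes, and the parts given here were not corrected for that. Sharing of Cck and Nkx2-1 with Pdyn was therefore not shown in the second library. The parts rest on 12 and 11 cells, and their difference between the libraries was not tested. The double heterozygote cell with the most Pdyn, 8 UMIs, was the one with 1892 UMIs of Avp, and it had no Ppp1r17, Cck or Nkx2-1.

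Tachykinin counts lay mostly in cells without Pdyn, but so did most Slc17a6 neurons. Tac1, the substance P precursor (plus strand of chromosome 6, 7554879 to 7565834), had 76 UMIs in 14 wild type cells and 13 UMIs in 7 double heterozygote cells. The 6 wild type cells with at least 5 UMIs held 82.9% of the wild type counts and no Pdyn, Ppp1r17 or Cck, and no double heterozygote cell reached 5. At a minimum of 2 UMIs, 8 wild type cells included 2 with Ppp1r17 and 1 with Cck, and 4 double heterozygote cells included 1 with Pdyn and 1 with Ppp1r17. With any Tac1 UMI, 4 of 14 wild type cells and 2 of 7 double heterozygote cells carried Ppp1r17, beside 24.0% and 22.9% of all Slc17a6 neurons. Pdyn was found in 1 of these 14 and 1 of these 7 cells, beside 14.0% and 21.7% of all. A separation of Tac1 cells from Pdyn or Ppp1r17 cells was therefore not shown. For Tac1 the log2 ratio of the libraries was -2.11 (-3.13 to -1.30) and was -2.01 without the top cell of each. In GABA neurons it was 0.35 and in all other kept cells 0.22. The remaining peptides were rare. Adcyap1, which encodes PACAP, had 9 and 11 UMIs, the neurotrophin gene Bdnf 16 and 8, the secreted neurexin ligand Nxph4 14 and 3, and gastrin-releasing peptide (Grp) 11 and 6. Secretogranin II (Scg2), a dense-core vesicle protein of many peptide cells, was found in 68.0% and 84.3% of cells. Its shares were 9.24% and 6.67% in oligodendrocyte-marker cells and 80.1% and 85.9% in GABA neurons.

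GABA neurons of the same libraries, 312 and 298 cells chosen by the same limits but with a GABA gene and without Slc17a6, served as the comparison. They had a median of 2087 and 2498 UMIs, so they were deeper. Among 7527 genes with at least 20 UMIs over the 2 sets in each library, and with the genes of the rule left out, 76 (1.01%) were at least 2-fold higher in the Slc17a6 neurons in both libraries and 78 (1.04%) were at least 2-fold lower in both. Cells are not replicates, so these counts describe the libraries. Of those genes, 26 higher and 28 lower ones also had enough UMIs and cells, an interval that left out equality and no dominant cell.

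The higher genes were led by Pdyn, at 256 and 248 CPM in Slc17a6 neurons and 7.85 and 16.5 CPM in GABA neurons, log2 ratios of 4.94 (3.90 to 6.40) and 3.88 (3.06 to 4.83). Cacna2d1, the alpha2delta-1 calcium channel subunit that binds gabapentin (plus strand of chromosome 5, 15934691 to 16374511), was at 268 and 407 CPM against 55.0 and 64.9. Its log2 ratios were 2.28 (1.73 to 2.86) and 2.65 (2.14 to 3.16). It was found in 34% and 47.0% of Slc17a6 neurons, against 0.803% and 0.833% of oligodendrocyte-marker cells. Thinned to 1000 UMIs the shares were 25.4% and 27.3% in Slc17a6 neurons and 6.15% and 4.53% in GABA neurons. By number of cells it was the most widespread of the 12 named genes of this direction. It was not limited to cells with Pdyn: 4 of its 34 wild type cells and 7 of its 39 double heterozygote cells had a Pdyn UMI.

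The other named genes of this direction were more modest. Ppp1r17 had log2 ratios of 1.59 and 1.62 over GABA neurons, and 0.99 and 1.26 when each cell was weighted equally. Arpp21, a phosphoprotein regulated by cyclic AMP, had 1.84 and 2.16, and Ccnd2, cyclin D2, had 1.58 and 1.96. Serpini1 (neuroserpin) had 1.65 and 1.38, Arhgap20 (a GTPase activating protein) 1.86 and 1.35, and Cpne4 (a copine) 1.37 and 2.05. Fstl5 had 1.40 and 1.59, Sh3gl2 (endophilin A1, of synaptic vesicle retrieval) 1.29 and 1.56, Ncdn (neurochondrin) 1.28 and 1.59, and RMST_1, an entry named after a long noncoding RNA, 1.33 and 1.80.

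The named lower genes included feeding peptides and homeobox factors. Npy, the orexigenic neuropeptide Y, was at 4.20 and 38.5 CPM against 837 and 3257, log2 ratios of -7.06 (-12.95 to -5.16) and -6.30 (-7.72 to -5.36). Agrp, its partner in hunger neurons, had 0 UMIs in wild type, at least 27.6-fold lower than GABA neurons by a floor of 3 counts per library, and 3 UMIs in the double heterozygote, with a log2 ratio of -5.87 (-8.37 to -4.54). The homeobox genes Dlx1, Dlx2, Dlx5 and Dlx6, which specify forebrain GABA neurons, had no UMI in any Slc17a6 neuron. Dlx1 was at least 10.5-fold and 7.68-fold lower, and Dlx6 at least 6.24-fold and 7.18-fold lower. Six3 and Six6, eye and hypothalamus homeobox genes, were lower too. Six3 had 11 and 5 UMIs and log2 ratios of -2.44 and -2.64, and Six6 had 3 and 3 UMIs and log2 ratios of -3.61 (-6.12 to -2.25) and -2.96 (-5.47 to -1.60). The remaining named genes were Gal at -2.80 and -2.29, Serpina3n (a serine protease inhibitor) at -2.26 (-4.78 to -0.85) and -2.27, and Ecel1 (a neuronal endopeptidase) at -2.29 and -2.25. Rasl11b, a small GTPase, was at -3.77 (-7.15 to -2.20) in wild type and at least 3.56-fold lower in the double heterozygote, where it had 0 UMIs.

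**Figure D3:**
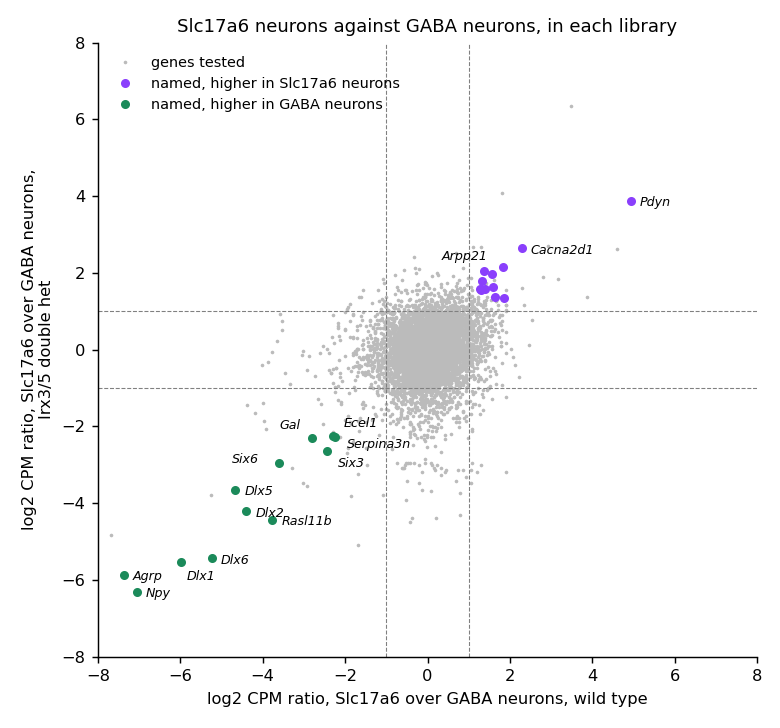
Log2 ratio of CPM in Slc17a6 neurons over GABA neurons in the wild type library (x axis) and the double heterozygote library (y axis), 1 point per gene with at least 20 UMIs over both sets in each library; dashed lines mark 2-fold. Pdyn and Cacna2d1 stand at the upper right and Npy and Agrp at the lower left; ratios of the Dlx genes and of Agrp in wild type, at 0 UMIs in Slc17a6 neurons, are set by the 0.5 added to each sum.

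Genes of neighbouring nuclei were present in small numbers of cells. Of 12 measured genes listed for the ventromedial nucleus, 7 had at least 10 UMIs in the Slc17a6 neurons over both libraries. Of these, 5 were at least 2-fold higher than in GABA neurons in both libraries. Of all 7319 genes with that minimum, 191 (2.61%) were as high and 21 (0.287%) at least 2-fold lower. The minimum counted Slc17a6 neurons only, so it favoured genes higher in them, and the count of 5 is no test. With UMIs of both sets counted, 76 genes were higher and 78 lower. The 5 genes were Adcyap1, Bdnf, Fam19a1 (a secreted chemokine-like factor), Nptx2 (a synaptic pentraxin) and Fezf1, a zinc finger factor of the developing ventromedial nucleus. Fezf1 had 6 and 6 UMIs, in 4 and 4 cells, and none in 312 and 298 GABA neurons, at least 7.48-fold and 10.7-fold higher. Nr5a1, the defining factor of that nucleus, had only 3 and 2 UMIs, in 2 and 2 cells. Dlk1, a Notch-related membrane protein, was lower, at 260 and 204 CPM against 1134 and 990.

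Of 15 arcuate and hypothalamic transcription factors with at least 10 UMIs, 5 were above GABA neurons in both libraries and 6 below in both, with 2 and 1 past 2-fold and list medians of -0.66 and 0.45 on the log2 scale. Over all 7319 genes with at least 10 UMIs in the Slc17a6 neurons, 36.3% were above and 22.4% below in both, and 0.287% were at least 2-fold lower in both. Nhlh2, a helix-loop-helix factor needed for normal body weight, had 11 UMIs in 11 wild type cells and 10 UMIs in 10 double heterozygote cells, 46.1 and 55.0 CPM, against 1.12 and 1.03 CPM in GABA neurons. Nkx2-1 was at 105 and 88.1 CPM against 28.1 and 44.3. Lhx5, a factor of the mammillary region, had 14 and 6 UMIs and log2 ratios over GABA neurons of 2.67 and 1.36, and Foxb1, another mammillary factor, was excluded by the rule. Isl1, an arcuate LIM homeobox factor, was at 96.5 and 127 CPM against 171 and 193.

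Energy balance receptors ranged from 0 UMIs to the 33 and 18 UMIs of Ntrk2, the receptor of brain-derived neurotrophic factor. Lepr, the leptin receptor, was found in 1 wild type cell and in 0 of 83 double heterozygote cells, which allows a share of cells with a UMI of up to 3.61% by the same limit of 3 counts and does not limit the share of cells expressing the gene. Mc4r, the melanocortin receptor of feeding control, had 0 and 2 UMIs, Esr1 (oestrogen receptor alpha) 0 and 2, Htr2c (a serotonin receptor) 5 and 0, and Glp1r none. Of 32 genes listed for energy balance receptors and their signals, 8 had at least 10 UMIs, 2 of them above 0 between genotypes, with a list median of -0.28. Of all 4494 genes with at least 20 UMIs, 2220 were above 0 between genotypes. Cnr1, the cannabinoid receptor of presynaptic terminals, had 15 and 9 UMIs. Its log2 ratios over GABA neurons were 2.95 (1.62 to 4.54) and 2.27 (0.79 to 3.72). Irx3 had no UMI in the Slc17a6 neurons and Irx5 had 1 and 0, so these cells do not check the genotype labels.

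Between genotypes, most genes of the Slc17a6 neurons lay close together. Of 4494 genes with at least 20 UMIs over both libraries, 152 (3.38%) were at least 2-fold higher in the double heterozygote library and 314 (6.99%) at least 2-fold lower, with a median log2 ratio of -0.0041 over all of them and the genes of the rule left out. Weighting each cell equally gave 341 higher and 440 lower, so both numbers depend on how cells are weighted. An interval without equality was found for 108 of the higher and 217 of the lower genes. Genes with at least 30 UMIs, enough cells and no dominant cell numbered 50 higher and 41 lower, and genes among the first 10 of each by size are named here.

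Higher in the double heterozygote library were several genes that were also higher in other cells. Cxx1c had 11 and 41 UMIs, a log2 ratio of 2.24 (1.30 to 3.40), with 2.87 in GABA neurons and 3.03 in all other kept cells. Atp5g1, an ATP synthase subunit, had 20 and 61 UMIs, 1.98 (1.25 to 2.81), with 2.32 and 2.48. The pseudogene entry Oaz1-ps had a log2 ratio of 1.60 with 2.02 and 1.95, the chaperone Hspa8 1.76 with 1.37 and 1.28, and Grcc10 1.74 with 1.16 and 1.19. Cxx1c, Atp5g1, Hspa8 and Oaz1-ps have near-identical copies or pseudogenes, so their counts are uncertain.

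Other genes were higher in the Slc17a6 neurons and lay closer to 0 elsewhere; the difference between cell sets was not tested. Emg1, of ribosome assembly, had 9 UMIs in 8 wild type cells and 25 in 17 double heterozygote cells, a log2 ratio of 1.82 (0.72 to 3.15), with 0.11 in GABA neurons and 0.09 in other cells. Nefm, the medium neurofilament chain, had 10 and 25 UMIs, 1.67 (0.61 to 2.94), with 0.22 and 0.62. Acp2, a lysosomal phosphatase, had 9 and 21 UMIs, 1.57 (0.43 to 2.92), with 0.24 and -0.11. Camsap2, which caps microtubule minus ends, had 10 and 23 UMIs, 1.55 (0.47 to 2.83), with -0.25 and 0.11. Each of these 4 rests on at most 25 UMIs in a library, and an interval without equality was a condition for being named.

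The lower genes were led by Sez6, a seizure-related membrane protein of dendrites and synapses (plus strand of chromosome 11, 77930800 to 77979048). It had 119 UMIs in 48 wild type cells and 19 UMIs in 17 double heterozygote cells, 499 and 105 CPM, a log2 ratio of -2.22 (-3.04 to -1.55). The ratio was -2.58 in GABA neurons and -2.07 in other cells, so the low value was found across the library. Mrps7, a mitochondrial ribosomal protein, had 46 and 8 UMIs and -2.06 (-3.43 to -1.03), with -1.18 and -0.66. Samd14 had 26 and 5 UMIs and -1.88 (-3.72 to -0.58), with -0.40 and 0.07, and -0.73 when each cell was weighted equally. Rab12, a small GTPase of endosomes, had 28 and 6 UMIs and -1.74 (-3.39 to -0.53), with -0.47 and -0.31. The other 6 were clone-named or pseudogene entries (AL591207.1, AC129016.2, CT868733.2, AC159139.1, Atp5l-ps2 and AC122235.1) at -2.08 to -1.80, whose counts may be shared with copies.

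**Figure D4:**
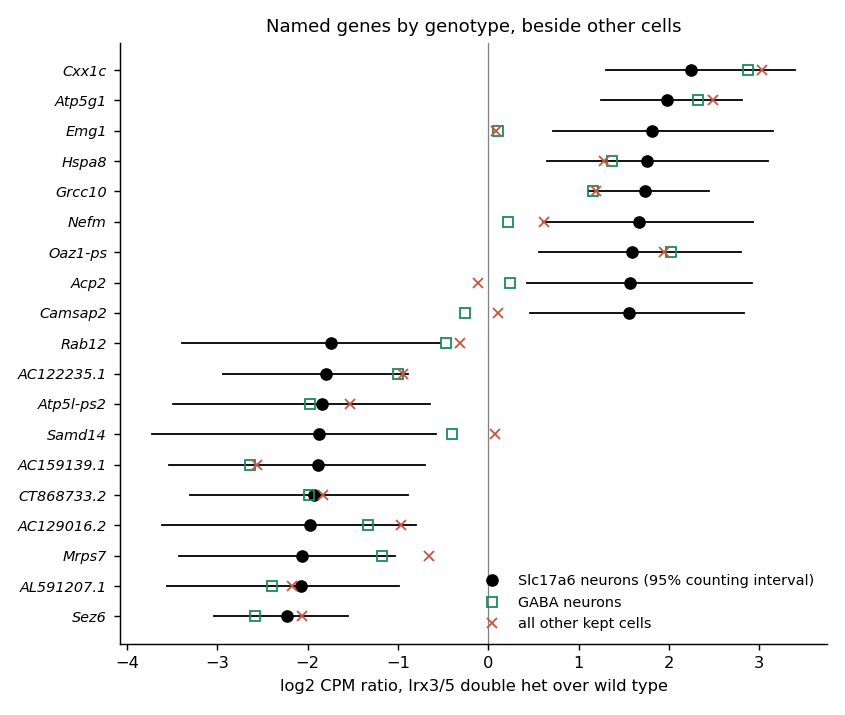
Log2 CPM ratio of double heterozygote to wild type for the named genes in Slc17a6 neurons (black, with 95% counting interval), GABA neurons (squares) and all other kept cells (crosses). For Atp5g1 and Sez6 the 3 marks lie together, and for Emg1, Acp2, Camsap2 and Samd14 the squares and crosses lie nearer to 0.

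Gene lists moved little as groups. List genes needed at least 10 UMIs, against 20 for the 4494 genes, of which 2220 were higher and 2274 lower. Over the 7319 genes with at least 10 UMIs the median log2 ratio was -0.046. The GABA receptor list had 11 of 13 measured genes above 0 and a median log2 ratio of 0.39. None of the 13 passed 2-fold. Gabra2, an alpha subunit, had 68 and 78 UMIs and 0.59 (0.10 to 1.08), with 0.81 in GABA neurons. Of those 13 genes, 9 were also above 0 over GABA neurons in both libraries, led by Gabbr2, a GABA-B receptor subunit, at 1.90 and 1.57. Of all genes with at least 10 UMIs in the Slc17a6 neurons, 36.3% were above 0 in both. The ionotropic glutamate receptor list had 7 of 10 genes below 0 and a median of -0.63, and only the kainate receptor gene Grik2 passed 2-fold, with 13 and 3 UMIs and -1.56 (-4.18 to 0.14). Gria2, the AMPA receptor subunit that limits calcium entry, had 194 and 119 UMIs and -0.31 (-0.65 to 0.02). None of the 10 had an interval without equality.

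Energy metabolism genes differed by small amounts. The nuclear oxidative phosphorylation list had 22 of 30 genes above 0 with a median of 0.13, and Uqcrb, of complex III, had 89 and 120 UMIs and 0.82 (0.42 to 1.24). Weighting each cell equally gave a list median of 0.43. The 7 measured mitochondrially encoded genes were all higher than in GABA neurons in both libraries, beside the same 36.3%, for example mt-Nd5 at 0.67 and 0.46. Between genotypes they had a median of -0.08, with 3 above 0, and mt-Co1 stood at 1.44 (1.10 to 1.80), with 1.61 in GABA neurons and 1.35 in other cells.

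Vesicle, peptide-processing and channel lists lay near 0. The median was 0.06 for 24 synaptic vesicle genes (13 above 0), 0.15 for 14 peptide-processing genes (9 above 0) and -0.06 for 23 voltage-gated channels (9 above 0). It was 0.03 for 7 ventromedial genes (4 above 0) and 0.19 for 18 neuropeptides (10 above 0). All but the neuropeptide median changed sign under at least 1 alternative setting. Pcsk2, prohormone convertase 2, had 115 and 57 UMIs and -0.61 (-1.11 to -0.15), and Pcsk1, prohormone convertase 1, had 12 and 22 UMIs and 1.24 (0.19 to 2.41), of which 9 double heterozygote UMIs lay in 1 cell. The log2 ratio of Pcsk1 was -0.82 in cells with at least 2 Slc17a6 UMIs. Vgf, a secreted neuronal peptide precursor, had 35 and 7 UMIs, with 68.6% of the wild type counts in 1 cell. Cbln2, a synapse-organising cerebellin, had 25 and 7 UMIs and -1.37 (-2.90 to -0.19). Foxp1, Otp and Lhx1, transcription factors of hypothalamic neurons, each had 3 and 11 UMIs. The 10 measured leptin signalling genes had a median of 0.20, none of them with an interval without equality.

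**Figure D5:**
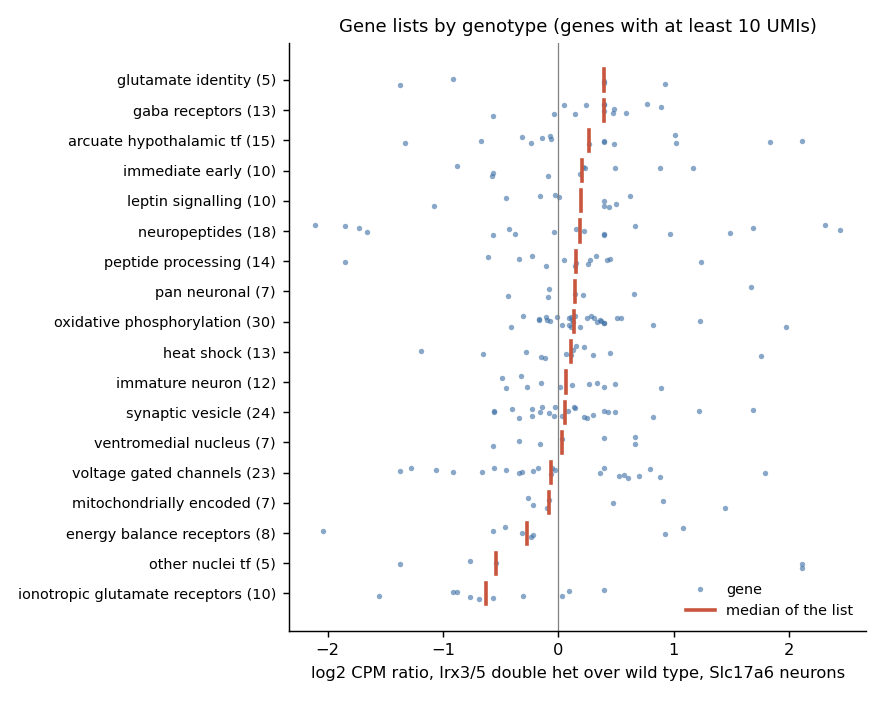
Log2 CPM ratio of double heterozygote to wild type in Slc17a6 neurons for each gene with at least 10 UMIs (points) of 18 lists, with the list median (vertical bar) and the number of genes in brackets. Medians run from -0.63 for ionotropic glutamate receptors to 0.39 for GABA receptors, and the points of most lists spread on both sides of 0.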

How the data were processed

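The authors deposited 1 table per library of whole-number UMI counts per gene and cell barcode, and a merged table of natural log values, which served to define an alternative cell set. Per the submitters' processing notes, tools included STAR 2.6.0b, Picard, bcl2fastq and Seurat 3, with build mm10. The sources used here do not give the annotation or the treatment of reads matching several genes. Gene positions come from a GENCODE annotation of GRCm38. UMIs of the chosen cells were summed per library and scaled to CPM; log2 ratios add 0.5 to each sum. Intervals are exact (conditional binomial for ratios, Clopper-Pearson for shares, 95%). Shares were repeated after thinning each cell to 1000 UMIs. GABA neurons had at least 1 UMI of Slc32a1, Gad1 or Gad2, none of Slc17a6 and the same peptide limits. Oligodendrocyte-marker cells had at least 3 of Mog, Mag, Mobp, Cldn11, Ermn and Opalin and under 2 neuron markers. The ratio and interval steps were run on simulated independent counts. Those had no variation between cells or mice, so the run cannot show how the intervals hold here. Python 3.11.15, scanpy 1.11.5 (Scrublet), scipy 1.17.1, numpy 2.4.6 and matplotlib 3.10.9 were used.

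Named genes were list genes with at least 10 UMIs, or whose low count is itself stated; up to 10 per direction between genotypes; and up to 12 per direction against GABA neurons. The last 2 kinds needed at least 30 UMIs, a 2-fold ratio, an interval without equality, 5 cells and no cell with over 25% of the higher side's counts, and left out ribosomal, mitochondrial, haemoglobin, Xist, Tsix, Y-linked, Gm-number and Rik genes. Some genes that met these rules are not reported here. The members and the gene lists were chosen with earlier results of these data known. Alternatives changed the limits on genes, mitochondrial counts, markers, depth, Slc17a6, doublets, scaling and low counts.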

Additional observations from a re-analysis of the deposited data

How the results depend on the processing

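Each library is 1 pool, so no replicate could be left out. No paired analysis was possible because each genotype has 1 library. With at least 2 Slc17a6 UMIs, Slc17a6 neurons were 4.83% of wild type and 5.97% of double heterozygote neurons, and with neurons thinned to 1000 UMIs it was 8.45% in the double heterozygote. The number of genes at least 2-fold higher in the double heterozygote was 341 of 4494 genes tested with cells weighted equally. It was 456 of 7319 or 35 of 1809 with a minimum of 10 or 50 UMIs per gene. The number lower was 184 of 2854 genes tested with at least 2 Slc17a6 UMIs, against 314 of 4494 in the main setting. It was 829 of 7319 or 57 of 1809 with a minimum of 10 or 50. Against GABA neurons, 124 genes were higher and 183 lower of 7527 tested with cells weighted equally. They were 177 and 143 of 10124 with a minimum of 10 UMIs, and 22 and 33 of 4130 with a minimum of 50. Fewer or more genes were tested under these minimums, and fewer with at least 2 Slc17a6 UMIs, 2854 against 4494. For the other settings the cause was not tested. The oxidative phosphorylation median was 0.43 with cells weighted equally, and Pcsk1 reversed to -0.82 with at least 2 Slc17a6 UMIs. Of 18 list medians, 9 kept their sign under every alternative run, GABA and ionotropic glutamate receptors among them, and 9 did not, glutamate identity (-1.18 to 0.40) among them. Leaving out cells with at least 10 UMIs of Avp, Oxt or Sst was chosen after seeing the data. That setting gave 173 higher and 282 lower genes between genotypes, of 4201 tested. The median over all genes stayed between -0.05 and 0.05. With at most 100 cells a library, ratios of genes under 20 UMIs have wide counting intervals.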

Other observations

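Activity and stress genes, which respond to firing and to tissue dissociation, were present in the Slc17a6 neurons. By CPM, Fos was higher in the double heterozygote library in Slc17a6 neurons and lower in GABA neurons. Jun was lower in both sets, and by summed UMIs more so in Slc17a6 neurons. None of these differences was tested. Fos, an immediate early transcription factor, was at 436 and 506 CPM in Slc17a6 neurons, against 819 and 449 in GABA neurons. It was found in 31.0% and 21.7% of Slc17a6 neurons and in 43.8% and 27.5% of oligodendrocyte-marker cells. Jun, its partner, had 112 and 46 UMIs, a log2 ratio of double heterozygote to wild type of -0.88 (-1.42 to -0.38), with -0.49 in GABA neurons and -0.43 in other cells. Weighting each cell equally gave -0.38 for Jun in Slc17a6 neurons. Hsp90aa1, a chaperone, had 497 and 517 UMIs and 0.45 (0.27 to 0.63), with 0.50 and 0.45. Genes of immature neurons were measured in 12 cases with a median of 0.06, which changed sign under at least 1 alternative setting, with Stmn1, a microtubule regulator, at 41 and 58 UMIs and 0.89 (0.29 to 1.51), beside 0.87 in GABA neurons and 0.98 in other cells.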
